A study of Mus musculus with 4 samples.

Results

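Circadian clock genes were examined in the liver of obese mice fed diets with or without 7-ketocholesterol (7KC), an oxidized form of cholesterol. The 10 genes, Arntl, Npas2, Per1, Per2, Per3, Cry1, Nr1d1, Nr1d2, Dbp and Tef, were taken by symbol from the 24346 gene symbols in the tables, and 9 of them averaged 1 FPKM or more (fragments scaled to transcript length and to library depth) over the 4 libraries. Npas2 was the exception. RNA sequencing covered male ob/ob mice, a strain that becomes obese because it makes no leptin. Feeding began at 6 weeks of age and went on for 4 weeks. One group received regular chow (CD), another the high fat, high cholesterol diet (WD), and the CD+7KC and WD+7KC groups the same diets with 0.01% 7KC. Cholesterol was 1% of all diets, those of the controls included. Each group had 1 library, which leaves every difference without replicates and without a p-value. How many mice stood behind a library is not given in the sources used here. Lights followed a cycle of 12 h light and 12 h dark, but the hour at which each liver was taken, and whether the mice had been fasted, are not given in the sources used here. Time of day and diet therefore cannot be told apart for these genes.

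The liver clock is a feedback loop of transcription. BMAL1, the product of Arntl, pairs with CLOCK or with NPAS2 and switches on genes through E-boxes, among them the Per and Cry genes, whose proteins return to the nucleus and block that pair. The nuclear receptors REV-ERBα and REV-ERBβ, encoded by Nr1d1 and Nr1d2, repress Arntl and Npas2 through ROR elements, and the PAR bZIP factors DBP and TEF act on D-boxes of output genes. In mouse liver under a light and dark cycle, Nr1d1 and Dbp transcripts peak in the light phase, Per2 follows around the onset of darkness, and Arntl and Npas2 peak around the end of the dark phase. A liver taken at one hour reads 1 moment of this cycle.

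The promoter stretches that hold these elements are shown because the loop runs through them. RefSeq promoters (GRCm38.p6, from 250 bases before to 50 bases after the transcript start) were at hand for 9 of the 10 genes, and for Per2 none was at hand. They were searched on both strands for the E-box CACGTG, the E-box variant CACGTT, the D-box TTATGTAA or TTACGTAA, the ROR element core AGGTCA, and the cyclic AMP element TGACGTCA and its core TGACG, which lies inside the full element. The E-box and its variant differ in the last letter, so 1 site cannot count for both. Capitals mark a match, sequences run 5′ to 3′ on the strand of the gene, and positions count from 1 at the transcript start. Matches on the opposite strand appear as their reverse complement, as in Cry1, Nr1d1 and Per1.
Per3, chr4:151044796-151044890, minus strand, D-boxes at -205 and -158: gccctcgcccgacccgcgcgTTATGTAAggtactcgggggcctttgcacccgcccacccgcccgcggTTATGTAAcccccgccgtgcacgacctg
Cry1, chr10:85185089-85185153, minus strand, E-box variant at -79 and E-box at -60: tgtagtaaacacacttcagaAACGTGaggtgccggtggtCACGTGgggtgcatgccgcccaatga
Per1, chr11:69098763-69098837, plus strand, E-box at -166 and ROR element core at -137: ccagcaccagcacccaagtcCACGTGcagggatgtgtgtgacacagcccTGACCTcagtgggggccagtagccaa
Nr1d1, chr11:98775380-98775425, minus strand, E-box variant at -28: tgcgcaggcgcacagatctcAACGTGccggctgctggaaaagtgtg
Tef, chr15:81802534-81802563, plus strand, E-box at -127: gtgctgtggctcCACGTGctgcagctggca
Arntl, chr7:113207530-113207559, plus strand, ROR element core at 32: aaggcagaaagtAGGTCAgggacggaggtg
Nr1d2, chr14:18239158-18239203, minus strand, ROR element core at -77: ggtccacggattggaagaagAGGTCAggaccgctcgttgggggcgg
The stretches of Arntl and Tef lie at or next to an annotated untranslated region (UTR) of the gene (GENCODE vM21), and the others overlap no UTR of their gene. Another promoter of Tef, further along the chromosome, also held an E-box, at -138. The E-box was found in 3 of the 9 genes (Cry1, Per1, Tef) against 8.09% of all 27025 genes with a promoter in the table, and its variant in 2 (Cry1, Nr1d1) against 5.44%. The D-box was found in 1 gene, Per3, against 1.23%, and the ROR element core in 3 (Arntl, Nr1d2, Per1) against 18.1%. The full cyclic AMP element was in 0 of the 9 (2.03% of all genes) and its core in 2, Cry1 and Per1 (23.1%). Npas2 and Dbp held none of these letters in their windows. A match describes the sequence and is no evidence of binding.

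In all 4 libraries the PAR bZIP and REV-ERB genes stood well above the Per and Cry genes, and Arntl and Npas2 were the lowest. FPKM is a value per length, so that levels can be set beside each other between genes. Dbp ranked highest and Tef next to it in each library, Per1 led the genes below the REV-ERB pair, and Arntl and Npas2 came last. The range of Dbp over the libraries, 36.9 to 48.3 FPKM, lay above that of Tef, 29.7 to 36.2 FPKM, and both lay above Nr1d1 and Nr1d2. Nr1d1 (20.2 to 26.0 FPKM) and Nr1d2 (19.9 to 27.4 FPKM) overlapped, and which of the pair was higher differed between the CD and the WD libraries. Per1 (4.49 to 6.65 FPKM) lay above the other repressor genes, while Per2, Per3 and Cry1 overlapped. Arntl lay below all of them. Npas2 was near the limit of detection.

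**Figure D1:**
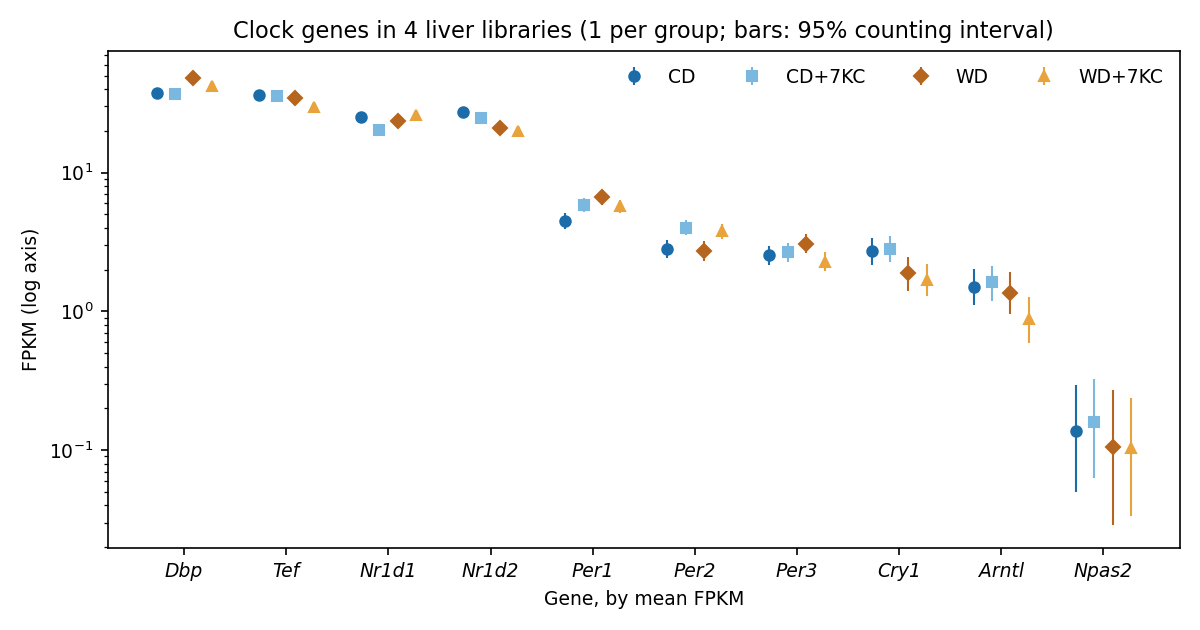
FPKM of the 10 clock genes (log axis) in the CD, CD+7KC, WD and WD+7KC libraries, 1 point per library, with exact Poisson 95% intervals of the estimated reads, which cover counting error only. Dbp, Tef, Nr1d1 and Nr1d2 sit between 19.9 and 48.3 FPKM, the Per genes and Cry1 between 1.69 and 6.65 FPKM, and Npas2 at or below 0.159 FPKM.

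The activators were low in every library. Arntl (chromosome 7, 113207465 to 113314126, plus strand, GRCm38) was at 1.505 FPKM with CD, 1.62 with CD+7KC, 1.36 with WD and 0.884 with WD+7KC. The WD+7KC library was the lowest and the other three lay close together. As reads, estimated from the spacing of low FPKM values, these were 44.6, 48.1, 34.5 and 29.0. Log2 fold changes (FPKM + 0.1, which understates the change of low genes) were 0.10 in CD+7KC relative to CD and -0.57 in WD+7KC relative to WD. The 95% counting interval of the latter, given like all such intervals for the plain ratio of reads, ran from -1.40 to 0.12, and at this depth the libraries could not be separated. Between WD+7KC and CD+7KC the log2 fold change of Arntl was -0.80 (-1.58 to -0.17). This interval reached past 0 after rescaling to equal FPKM sums. Npas2 (chromosome 1, 39193731 to 39363236) was listed at 0.137, 0.159, 0.106 and 0.103 FPKM in CD, CD+7KC, WD and WD+7KC, an estimated 6.0, 7.1, 4.0 and 5.0 reads. Its intervals spanned 0 in all 4 comparisons, so that no difference could be detected with so few reads.

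Among the repressor genes, Per2 was higher in both libraries with 7KC. Per2 (chromosome 1, 91415982 to 91459324, minus strand), whose protein binds CRY and holds back CLOCK and BMAL1, was at 2.82 FPKM in CD and 4.01 in CD+7KC, and at 2.73 in WD and 3.77 in WD+7KC. Both libraries with 7KC lay above both without it. The log2 fold change was 0.49 (0.22 to 0.79) under CD and 0.45 (0.16 to 0.77) under WD. Rescaling to equal sums raises every clock gene in both comparisons, so these intervals above 0 could only move further from it. Per2 was the only one of the 10 genes with intervals on the same side of 0 in both comparisons of diets with and without 7KC. This held for the deposited values and after rescaling. How many of all genes do the same is not given here, so it cannot be said whether this sets Per2 apart. WD and CD differed by -0.04 (-0.37 to 0.28) in Per2, and WD+7KC and CD+7KC by -0.09 (-0.34 to 0.17). With 1 library on each side there is no measure of the spread between mice. The summed levels of macrophage and of endothelial markers, given at the end, were also higher in both libraries with 7KC than in their controls, and their part in the values of Per2 was not tested.

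Per1 and Per3 showed another order of libraries. Per1 (chromosome 11, 69095217 to 69109960), which also answers glucocorticoids and cyclic AMP, was at 4.49 FPKM with CD, 5.86 with CD+7KC, 6.65 with WD and 5.72 with WD+7KC. CD was the lowest library. Its log2 fold change was 0.38 (0.12 to 0.64) in CD+7KC relative to CD and 0.56 (0.30 to 0.82) in WD relative to CD, comparisons that share the CD library. In WD+7KC relative to WD it was -0.21 (-0.46 to 0.02), which was -7.1e-05 after rescaling. Per3 (chromosome 4, 151003652 to 151044665, minus strand), with the paired D-boxes shown above, was at 2.53 FPKM with CD, 2.67 with CD+7KC, 3.08 with WD and 2.28 with WD+7KC. WD+7KC differed from WD by -0.42 (-0.76 to -0.11) on the log2 scale, or by -0.21 after rescaling, where the interval included 0.

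Cry1, which encodes a repressor of the CLOCK and BMAL1 pair, was lower in both WD libraries. Cry1 (chromosome 10, 85131700 to 85185064, minus strand) was at 2.71 FPKM in CD and 2.83 in CD+7KC, and at 1.88 in WD and 1.69 in WD+7KC. The CD libraries lay close together, and so did the WD libraries. The log2 fold change was -0.51 (-1.07 to -0.0076) in WD relative to CD and -0.71 (-1.24 to -0.24) in WD+7KC relative to CD+7KC, and after rescaling only the latter interval lay below 0. With 7KC it differed by 0.06 (-0.39 to 0.51) under CD and by -0.14 (-0.72 to 0.43) under WD.

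The REV-ERB genes rested on more reads, 559 to 1338 per library. Nr1d1 (chromosome 11, 98767932 to 98775333, minus strand) was at 25.05 FPKM with CD, 20.2 with CD+7KC, 23.6 with WD and 26.0 with WD+7KC. The CD+7KC library stood below the other three, with a log2 fold change of -0.31 (-0.47 to -0.15) relative to CD, and WD+7KC was higher than it by 0.36 (0.20 to 0.52). These comparisons share the CD+7KC library and are not separate results. Between WD+7KC and WD the difference of Nr1d1 was 0.14 (-0.02 to 0.30), or 0.35 after rescaling, where the interval lay above 0. Nr1d2 (chromosome 14, 18204054 to 18239127, minus strand) was at 27.4 FPKM with CD, 24.5 with CD+7KC, 21.0 with WD and 19.9 with WD+7KC. Both WD libraries lay below both CD libraries. Its log2 fold change was -0.38 (-0.51 to -0.26) in WD relative to CD and -0.30 (-0.42 to -0.18) in WD+7KC relative to CD+7KC, of which the second interval included 0 after rescaling. Exons of Nr1d1 and of Thra, a thyroid hormone receptor gene on the opposite strand, share 263 bases (GENCODE vM21). The strand setting behind the FPKM values is not given in the sources used here, so reads of the pair cannot be told apart there. Thra was at 3.62 to 4.49 FPKM.

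Of the PAR bZIP genes, Dbp was higher in the WD libraries than in the CD libraries, and Tef was lowest with WD+7KC. Dbp (chromosome 7, 45705088 to 45710203, plus strand) was at 37.4 FPKM with CD, 36.9 with CD+7KC, 48.3 with WD and 41.9 with WD+7KC. The log2 fold change was 0.37 (0.22 to 0.52) in WD relative to CD and 0.18 (0.035 to 0.33) in WD+7KC relative to CD+7KC. After rescaling these were 0.40 and 0.39. Rescaling raises every clock gene in both comparisons, so these intervals above 0 could only move further from it. In WD+7KC relative to WD, Dbp differed the other way, by -0.20 (-0.35 to -0.06), which was 0.011 after rescaling. Dbp shares 539 exon bases with Sphk2, a sphingosine kinase gene on the opposite strand, which was at 18.7 FPKM with CD, 17.6 with CD+7KC, 26.3 with WD and 19.8 with WD+7KC. Sphk2 was thus also highest in WD and lowest in CD+7KC, and its part in the values of Dbp was not tested. Exons of Tef share 193 bases with Gm17597, and those of Arntl 33 with Gm45355. Both are antisense genes on the opposite strand, without FPKM values here. Tef (chromosome 15, 81802421 to 81826863, plus strand) was at 36.2 FPKM with CD, 35.6 with CD+7KC, 34.3 with WD and 29.7 with WD+7KC. Relative to WD the WD+7KC library was at -0.21 (-0.31 to -0.10), and relative to CD+7KC at -0.26 (-0.36 to -0.16). After rescaling to equal sums these differences were 0.0094 and -0.051, with intervals that included 0, and the range of Tef over the 4 libraries fell from 0.28 to 0.060 on the log2 scale.

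None of the 10 genes differed by more than 2-fold in any of the 4 comparisons. Among the 10686 genes that averaged 1 FPKM or more, the share past 2-fold was 1.18% higher and 0.861% lower in CD+7KC relative to CD, 2.71% higher and 0.767% lower in WD+7KC relative to WD, 2.61% higher and 2.04% lower in WD relative to CD, and 5.10% higher and 2.81% lower in WD+7KC relative to CD+7KC. Beside shares this small, 0 of the 10 clock genes is near the background and is no result about them. The median log2 fold change of the clock genes was 0.065, -0.17, -0.081 and -0.24 in the same order, beside -0.0048, -0.030, -0.0059 and -0.024 for all genes. Npas2, which is below 1 FPKM, counts in these clock medians and in the next. Without it the median log2 fold changes were 0.060, -0.20, -0.077 and -0.22. The median size of a difference without regard to its sign was 0.11, 0.21, 0.24 and 0.28 for the clock genes and 0.16, 0.19, 0.24 and 0.27 for all genes. Of the 40 counting intervals, 7 lay above 0, 11 below 0 and 22 included 0. After rescaling to equal sums these numbers were 9, 4 and 27. No such count over all genes is given here, so these numbers are no result about the clock genes. Rescaling moved the median of all genes from -0.030 to 0.18 in WD+7KC relative to WD and from -0.024 to 0.18 in WD+7KC relative to CD+7KC, and 9 of the 40 differences changed sign. The 9 were Npas2, Cry1, Nr1d2, Dbp and Tef in WD+7KC relative to WD, Per1 and Per2 in WD+7KC relative to CD+7KC, and Dbp and Tef in CD+7KC relative to CD.

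**Figure D2:**
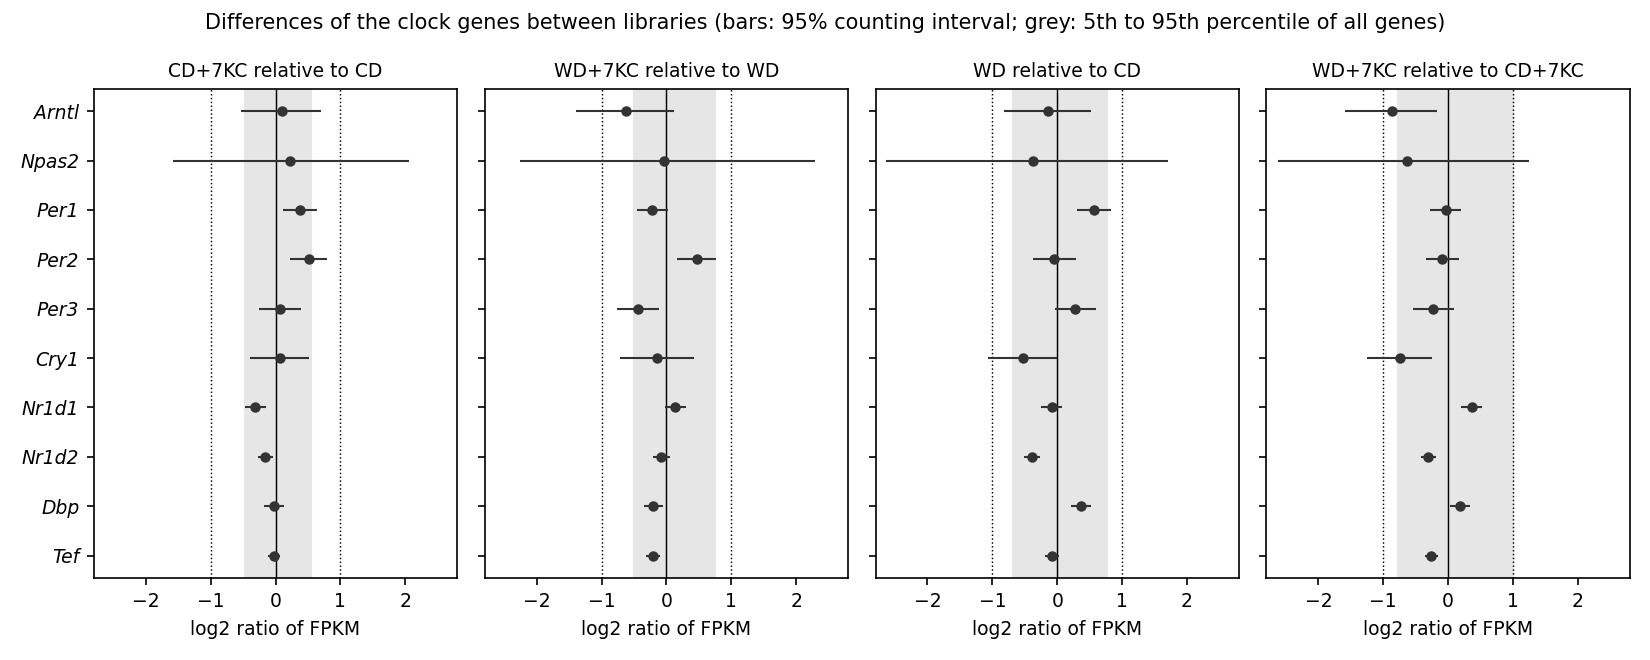
Log2 ratio of FPKM for each clock gene in the 4 comparisons, with exact 95% counting intervals; the grey band holds the 5th to 95th percentile of all genes averaging 1 FPKM or more and dotted lines mark 2-fold. No point lies past 2-fold, and the intervals of Npas2, which rests on 4.0 to 7.1 reads, are the widest.

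Over the 4 libraries together, the clock genes spread about as far as an ordinary liver gene. The log2 difference between the highest and the lowest library had a median of 0.44 over the 10 clock genes and 0.45 over all 10686 genes. The 10 include Npas2, which is below the 1 FPKM that the 10686 genes averaged and whose range the pseudocount narrows. After rescaling to equal sums the medians were 0.49 and 0.48. Of all genes, 13.7% were more than 2-fold apart between their highest and lowest library, and of the clock genes 0. Arntl had the widest range in the deposited values, 0.80, which was wider than that of 79.6% of all genes, followed by Cry1 with 0.71. After rescaling Per2 had the widest, 0.66, and Arntl came next with 0.61. Tef had the narrowest, 0.28, wider than 23.5% of all genes. In liver sampled at different hours some of these genes are known for swings of many-fold, which is background and was not measured here. Whether the livers were taken at a similar hour was not tested.

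**Figure D3:**
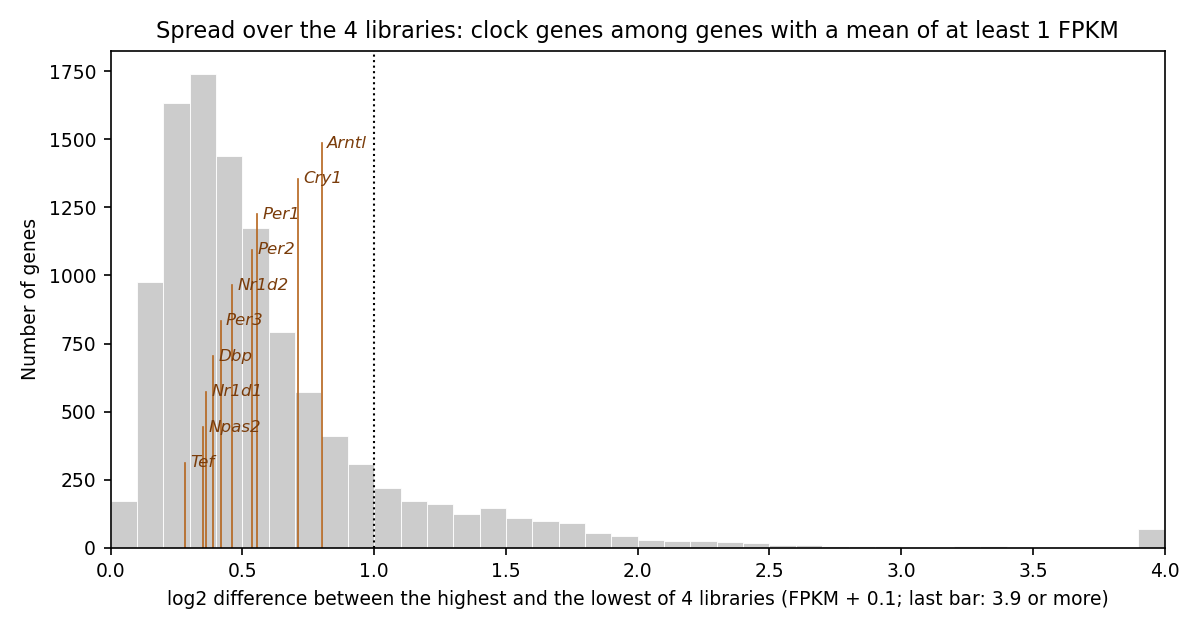
Histogram of the log2 difference between the highest and the lowest of the 4 libraries for 10686 genes averaging 1 FPKM or more, with each clock gene as a labelled line at its own value (Npas2 is below 1 FPKM). The lines run from 0.28 for Tef to 0.80 for Arntl, all short of the dotted line at 2-fold.

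Ratios within a library do not depend on how libraries are scaled to each other. Dbp was 24.9 times as high as Arntl with CD, 22.8 times with CD+7KC, 35.6 with WD and 47.4 with WD+7KC, or 4.64 (4.19 to 5.09), 4.51 (4.09 to 4.97), 5.15 (4.65 to 5.67) and 5.57 (5.03 to 6.15) on the log2 scale. The intervals of CD+7KC and WD+7KC did not overlap, and those of WD and CD did. Nr1d1 was 16.6, 12.5, 17.4 and 29.4 times as high as Arntl in CD, CD+7KC, WD and WD+7KC, and here too the intervals of CD+7KC (3.22 to 4.10) and WD+7KC (4.34 to 5.46) did not overlap. Per3 was 1.65 to 2.58 times as high as Arntl. Ratios to Npas2 ran from 232 to 455 for Dbp and from 127 to 252 for Nr1d1, with overlapping intervals. Dbp and Nr1d1 thus stood above Arntl and Npas2 in all 4 libraries, and the distance was largest in WD+7KC for the 3 ratios to Arntl and for Nr1d1 to Npas2, but in WD for Dbp to Npas2. The 3 ratios to Arntl share the low Arntl value of WD+7KC, an estimated 29 reads, and are not separate results. For each of these 3 the intervals of WD+7KC and WD overlapped.

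**Figure D4:**
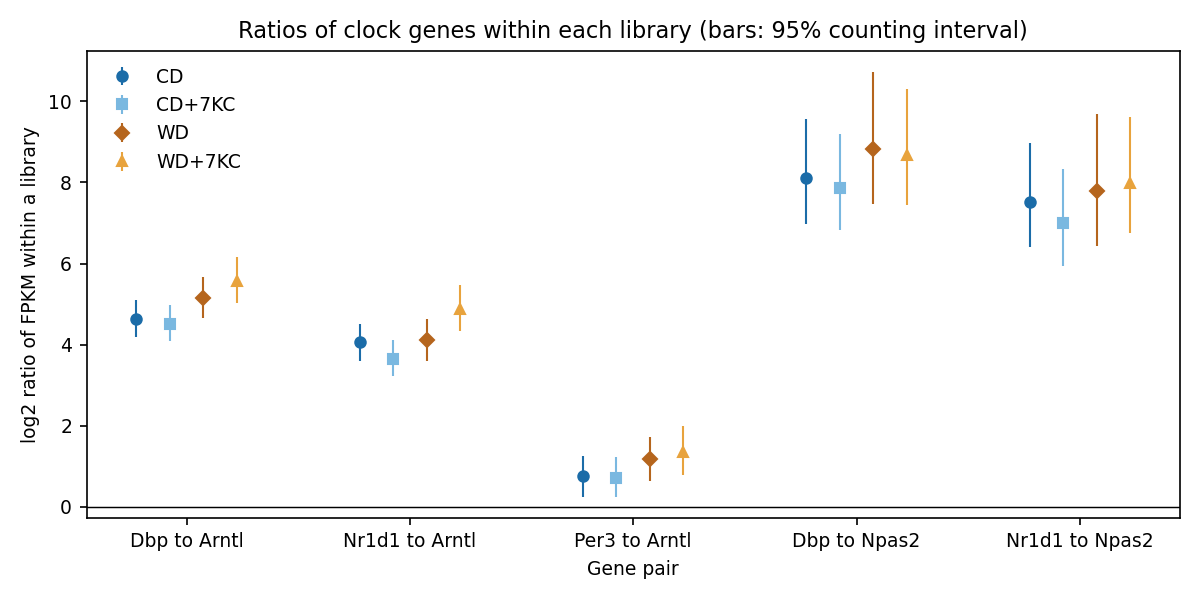
Log2 ratio of FPKM for 5 pairs of clock genes within each library, with exact 95% counting intervals. All ratios lie above 0, and Dbp to Arntl runs from 4.51 in CD+7KC to 5.57 in WD+7KC.

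Some differences with 7KC pointed in opposite directions under the diets. The comparisons of CD+7KC with CD and of WD+7KC with WD share no library. For 6 of the 10 genes (Arntl, Npas2, Per1, Per3, Cry1 and Nr1d1) the log2 fold changes had opposite signs. After rescaling to equal sums this held for 5 (Arntl, Per1, Per3, Nr1d1 and Nr1d2). The share of all genes with opposite signs is not given here, so these counts are no result about the clock genes. The change under WD minus that under CD was -0.59 for Per1, with an exact 95% counting interval of -0.95 to -0.24, and 0.45 (0.22 to 0.68) for Nr1d1. After rescaling these were -0.42 (-0.78 to -0.066) and 0.62 (0.40 to 0.85). Rescaling raises this value for all 10 genes, so the interval of Nr1d1, already above 0, could only move further from 0. The value of Nr1d1 takes in CD+7KC, the lowest library for this gene. For Per3 the change under WD minus that under CD was -0.49 (-0.96 to -0.048), but -0.32 (-0.79 to 0.13) after rescaling. For Tef, whose signs were the same, it was -0.18 (-0.33 to -0.036), but -0.0062 (-0.15 to 0.14) after rescaling. The intervals of the other 6 genes included 0 for the deposited values, and after rescaling that of Nr1d2 lay above 0, at 0.26 (0.087 to 0.43). They cover counting error only, and whether the diets differ in this respect was not tested.

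The genes whose pattern over the 4 libraries was most like that of 3 clock genes were found by the root mean square distance between log2(FPKM + 0.1) values centred on each gene's mean, among genes averaging 1 FPKM or more. Nearest to Dbp were Gtpbp6, Plbd2, Smim4, Mpdu1 and Rnf145, at distances of 0.0045 to 0.013. Nearest to Arntl were Amdhd1, Pbld2, Cyp27a1, Scmh1 and Yod1, at 0.018 to 0.025. Nearest to Per2 were Traf7, Plekhg2, Pde7b, Ints2 and Tbc1d22b, at 0.012 to 0.041. Over 4 libraries many genes come close, and 852 genes lay within 0.1 of Dbp, 116 of Arntl and 87 of Per2.

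Of 16 other clock genes 13 averaged 1 FPKM or more, and 1 of these was past 2-fold in a comparison. This was Fbxl21, a CRY ubiquitin ligase subunit, which was at 1.24 FPKM in CD and 2.94 in WD, a log2 fold change of 1.18. Of all genes 2.61% were past 2-fold higher there, and with 13 genes a count of 1 says little about the list. Clock, the partner of BMAL1, was at 5.44 FPKM with CD, 4.76 with CD+7KC, 3.69 with WD and 3.71 with WD+7KC, always above Arntl and far above Npas2. Medians of this list were -0.070, 0.0072, 0.032 and -0.12 in the order CD+7KC to CD, WD+7KC to WD, WD to CD and WD+7KC to CD+7KC, and -0.031, 0.22, 0.064 and 0.090 after rescaling. Rorb was listed at 0 in all libraries, and Bhlhe41 and Timeless were below 1 FPKM.

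Known targets of DBP, TEF and the related factor HLF included some with large differences. Of 6 targets, 1 was past 2-fold in CD+7KC relative to CD (2 after rescaling), 2 in WD relative to CD, 4 in WD+7KC relative to CD+7KC and 0 in WD+7KC relative to WD, with directions that were mixed. The 1 with CD+7KC was higher (1.18% of all genes were). Of the 2 with WD 1 was higher and 1 lower (2.61% and 2.04% of all genes). Of the 4 with WD+7KC 1 was higher and 3 lower (5.10% and 2.81% of all genes). These are shares of the deposited values, and none after rescaling is given here. Medians of the list were 0.69 in CD+7KC relative to CD, -0.29 in WD+7KC relative to WD, -0.19 in WD relative to CD and -0.68 between WD+7KC and CD+7KC, which became 0.73, -0.072, -0.16 and -0.47 after rescaling. Cyp2b10, a drug-metabolizing cytochrome, was at 32.7 FPKM with CD, 64.4 with CD+7KC, 10.98 with WD and 8.14 with WD+7KC. Both WD libraries were below both CD libraries, with a log2 fold change of -2.97 between WD+7KC and CD+7KC. Nr1i3, which encodes the receptor CAR, was at 45.6, 72.5, 29.4 and 19.2 FPKM in the same order (-1.91 in that comparison). Cyp2a5 differed by -1.47 there. Alas1, the first enzyme of heme synthesis, went the other way, with 165 FPKM with CD, 111 with CD+7KC, 322 with WD and 259 with WD+7KC (1.23 in that comparison). Cyp2a4 was at 30.2 FPKM in CD and 115, 157 and 193 in the others, but it is a close copy of Cyp2a5 and the split of reads between them is uncertain. Por, the electron donor of the cytochromes, stayed between 116 and 152 FPKM.

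Of 13 other genes with a daily rhythm in liver, 0 were past 2-fold in CD+7KC relative to CD, and 1, 1 and 2 were past 2-fold, all lower, in WD+7KC relative to WD, WD relative to CD and WD+7KC relative to CD+7KC. Of all genes 0.767%, 2.04% and 2.81% were past 2-fold lower there, and with 13 genes a count of 1 or 2 says little about the list. Elovl3, a fatty acid elongase, was at 54.6 FPKM with CD, 45.2 with CD+7KC, 9.71 with WD and 4.41 with WD+7KC, log2 fold changes of -2.48 in WD relative to CD and -1.12 in WD+7KC relative to WD. Upp2, a uridine phosphorylase gene, was at 192, 177, 104 and 60.3 FPKM. Medians of the list were -0.17, -0.31, -0.097 and -0.057 in that order of comparisons, and -0.13, -0.093, -0.064 and 0.15 after rescaling. Elovl3 was then no longer past 2-fold between WD+7KC and WD. After rescaling 1 other gene of the list was past 2-fold, higher, in WD relative to CD. The share of all genes past 2-fold after rescaling is not given here. Nampt, a direct E-box target, stayed between 17.7 and 21.0 FPKM.

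Genes that report hormones, feeding or body temperature were read beside the clock genes, since these signals are known to shift the liver clock. Of 7 glucocorticoid-induced genes, 1 was past 2-fold in each comparison. These were Mt2, a metallothionein that was lower in CD+7KC than in CD (-1.17) and in WD than in CD (-2.31), Zbtb16, higher in WD+7KC than in WD (1.14), and Tsc22d3, which encodes GILZ and was lower in WD+7KC than in CD+7KC (-1.11), a call lost after rescaling. Of 8 fasting-responsive genes, Igfbp1, which encodes a binding protein of insulin-like growth factors, was past 2-fold in CD+7KC relative to CD (-1.13), and G6pc, the gene of the enzyme that releases glucose, in WD+7KC relative to WD (-1.10, lost after rescaling) and to CD+7KC (-1.44). In the latter comparison 1 further gene of this list was past 2-fold, higher, after rescaling. Of 6 feeding-responsive genes, Thrsp, a lipogenic gene, was lower in WD than in CD (-1.18) and in WD+7KC than in CD+7KC (-2.01). Of 8 temperature-responsive genes 7 averaged 1 FPKM or more, and 0 of these were past 2-fold (1 after rescaling, in WD+7KC relative to CD+7KC). Past 2-fold lower were 0.861% of all genes in CD+7KC relative to CD and 2.04% in WD relative to CD. In WD+7KC relative to CD+7KC 5.10% were higher and 2.81% lower, and relative to WD 2.71% were higher and 0.767% lower. These are shares of the deposited values, and none after rescaling is given here. In lists of 6 to 8 genes a count of 0 or 1 says little about the list. Medians in WD+7KC relative to CD+7KC were -0.43 for the glucocorticoid-induced, -0.052 for the fasting, -0.41 for the feeding and 0.17 for the temperature genes, beside -0.024 for all genes. After rescaling they were -0.23, 0.16, -0.20 and 0.38, beside 0.18 for all genes. For CD+7KC to CD, WD+7KC to WD and WD to CD, deposited medians were -0.12, -0.18 and -0.34 (glucocorticoid-induced) and -0.085, -0.055 and -0.23 (fasting). They were 0.18, 0.225 and -0.48 (feeding) and 0.032, 0.19 and -0.12 (temperature), beside -0.0048, -0.030 and -0.0059 for all genes. In WD+7KC relative to WD the medians after rescaling were 0.033, 0.16, 0.44 and 0.39 in list order, beside 0.18 for all genes. Cirbp, a cold-induced RNA-binding protein, was at 10.98 FPKM with CD, 10.2 with CD+7KC, 7.54 with WD and 7.03 with WD+7KC. Rbm3 of the same list was at 32.4 FPKM with CD, 26.5 with CD+7KC, 48.1 with WD and 29.8 with WD+7KC. Of the 7 temperature-responsive genes, 3 were higher and 4 lower in WD relative to CD. Between WD+7KC and CD+7KC, 6 were higher and 1 lower. The part of feeding state, hormones or body temperature in the clock gene values was not tested.

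**Figure D5:**
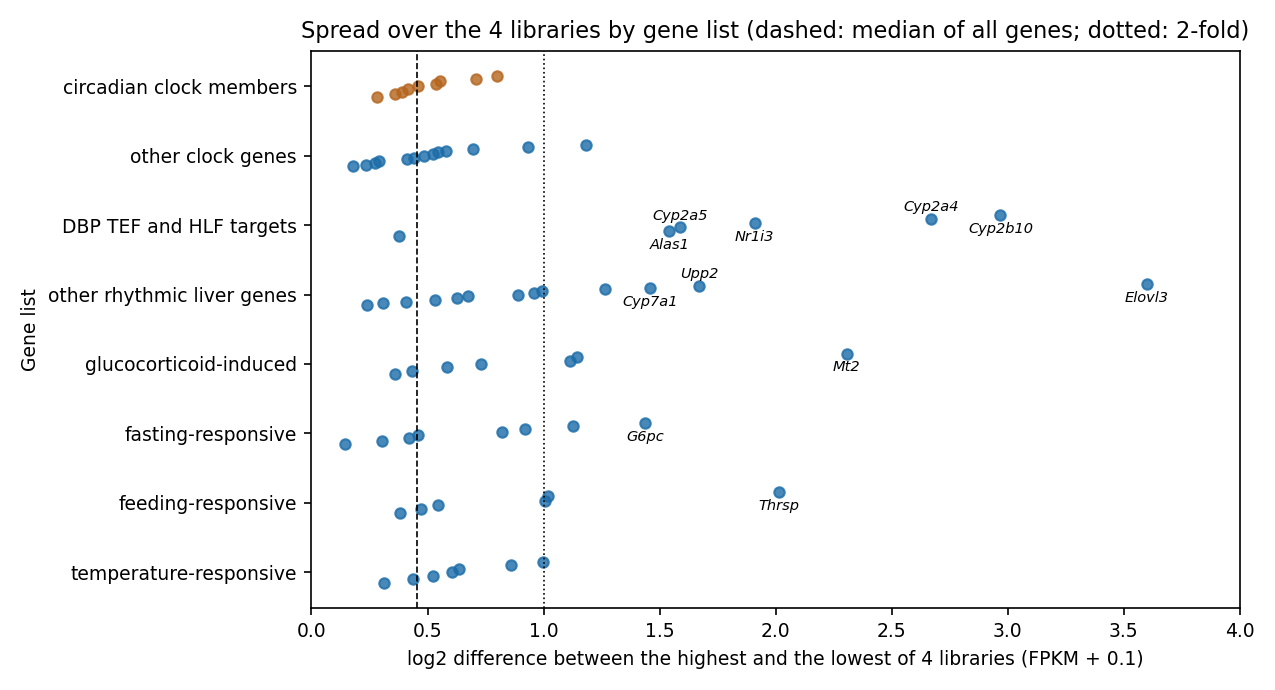
Log2 difference between the highest and the lowest of the 4 libraries for each gene averaging 1 FPKM or more in 8 gene lists; the dashed line is the median of all genes (0.45) and the dotted line is 2-fold. The 9 clock genes stay below 2-fold, while Elovl3 reaches 3.60 and Cyp2b10 2.97.

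Markers of some cell types differed between the libraries, and in bulk liver fewer cells of a type and less RNA per cell cannot be told apart. Hepatocyte markers dominated in each library, with a sum of 41850 to 52870 FPKM over 6 genes, and 0 of 6 were past 2-fold. The sum of 8 macrophage and Kupffer cell markers was 151 FPKM with CD, 239 with CD+7KC, 254 with WD and 508 with WD+7KC. In all 4 comparisons, which share libraries, 8 of 8 were higher. The share of all genes that were higher is not given here. Past 2-fold were 1 in CD+7KC relative to CD, 3 in WD+7KC relative to WD, 2 in WD relative to CD and 5 in WD+7KC relative to CD+7KC. The 6 endothelial markers summed to 46.7, 75.5, 39.6 and 111 FPKM, higher in both 7KC libraries than in their controls, and 6 of 6 were past 2-fold in WD+7KC relative to WD. Of all genes 2.71% were past 2-fold higher in that comparison and 5.10% in WD+7KC relative to CD+7KC. The shares were 1.18% in CD+7KC relative to CD and 2.61% in WD relative to CD. Sums over the libraries were 132 to 169 FPKM for 6 stellate cell markers, 2.42 to 3.78 for 4 cholangiocyte markers, 1.09 to 2.33 for 5 lymphocyte markers, 12.7 to 20.2 for 2 neutrophil markers and 66.6 to 143 for 3 adipocyte markers. Dcn made up most of the stellate sum, while Col1a1, a collagen gene of that list, was at 8.23 FPKM with CD, 3.40 with CD+7KC, 7.86 with WD and 9.52 with WD+7KC. Nearly all of the last sum was Fabp4, which macrophages and endothelial cells also express, while Plin1 was at 0 in all libraries. Estimated depth was 9400000 to 12100000 fragments, lowest in WD and highest in WD+7KC.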

How the data were processed

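The authors sequenced stranded mRNA libraries in single-end mode, and according to the submitters' processing notes mapped reads to mm10 with TopHat2 2.0.13, Bowtie2 2.2.3 and SAMtools 0.1.19 and computed FPKM with Cufflinks 2.2.1. The deposited tables give FPKM by gene symbol, 1 table for each library. The annotation and strand setting are not given in the sources used here.

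Log2 fold changes used a pseudocount of 0.1. As background served the share past 2-fold among genes averaging 1 FPKM or more. With 1 library per group no test was run. Depth was estimated from 13988 genes with a single RefSeq mRNA, as the depth at which FPKM times transcript length (GENCODE vM21, GRCm38) minus 200 bases fell nearest to whole reads. Between 71.0% and 72.3% of low values then lay within 0.1 of a whole number. For Arntl, Per1 and Tef the longest transcript linked to a RefSeq mRNA was used, and reads are approximate. With the shortest, no interval of these 3 genes changed its side of 0. Per3 has several mRNAs but 1 linked length, so no other could be tried. Intervals are exact (Clopper-Pearson for ratios, Poisson for levels, conditional for differences of differences) at 95%, and cover counting error only.

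The genes and lists were chosen with earlier results of these data known. All 10 clock genes are named. Of the lists other than cell markers, genes past 2-fold that averaged 1 FPKM or more were named, up to 4 per comparison, and for likeness the 5 nearest genes to Dbp, Arntl and Per2. Clock, Rorb, Bhlhe41, Timeless, Por, Nampt, Cirbp, Rbm3, Thra, Sphk2, Dcn, Col1a1, Fabp4 and Plin1 were added after their values were seen. Alternatives were pseudocounts of 1, 0.01 and none, 4 other scalings of the libraries, thresholds of 1.5-fold and 4-fold, and no filter on low values. Code was tested on simulated data. Python 3.11.15, numpy 2.4.6, pandas 2.3.3, scipy 1.17.1 and matplotlib 3.10.9 were used.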

Additional observations from a re-analysis of the deposited data

Results flagged for a closer look

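For 6 clock genes the difference with 7KC had opposite signs under WD and CD, which drew attention to them. The share of all genes with opposite signs is not given here, so this count is no result about the clock genes. The log2 change under WD minus that under CD was -0.66 for Arntl (95% counting interval -1.71 to 0.27), -0.15 for Npas2 (-3.15 to 2.69), -0.59 for Per1 (-0.95 to -0.24), -0.49 for Per3 (-0.96 to -0.048), -0.20 for Cry1 (-0.95 to 0.53) and 0.45 for Nr1d1 (0.22 to 0.68). With 1 library per group the difference between diets was not tested. After rescaling to equal sums the values were -0.50, -0.059, -0.42, -0.32, -0.034 and 0.62 in the same order. The interval of Per3 then included 0 (-0.79 to 0.13), those of Per1 and Nr1d1 did not, and Npas2 and Cry1 had the same sign under both diets. Rescaling raises each of these values, so the interval of Nr1d1 could only move further from 0. The value of Nr1d1 takes in CD+7KC, the lowest library for this gene.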

How the results depend on the processing

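The count of clock genes past 2-fold stayed at 0 in the 4 comparisons under each alternative but 1. With a threshold of 1.5-fold, 2 genes (Arntl and Cry1) were past it in WD+7KC relative to CD+7KC. The share of all genes past 1.5-fold is not given here. The median of the 10 genes in WD+7KC relative to WD was 0.038 after rescaling to equal sums (TPM) and -0.0031 when the sums left out the 20 highest genes, and in WD+7KC relative to CD+7KC it was -0.034 and -0.048 under these scalings and -0.12 with a pseudocount of 1. The other medians moved by less than 0.1. Arntl had the largest of the 40 single differences as deposited (-0.80), Cry1 with a pseudocount of 1 (-0.51) and Per2 after rescaling (0.66). Single differences changed sign in 9 of 40 cases with TPM, in 5 without the 20 highest genes, in 3 with the upper quartile and in 0 with median-ratio scaling or another pseudocount. Without a filter on low values, 6.75% to 12.6% of all genes above 0 were past 2-fold in CD+7KC relative to CD, WD+7KC relative to WD, WD relative to CD and WD+7KC relative to CD+7KC (603, 978, 828 and 1274 higher, 456, 440, 683 and 733 lower), against 126, 290, 279 and 545 higher and 92, 82, 218 and 300 lower with the filter. Rescaled intervals, ranges and the shortest transcripts were chosen after seeing the data. No paired analysis was possible because each group had 1 library, and for the same reason no replicate could be left out. Depth limits Npas2 most, followed by Arntl and Cry1.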
